A study of Bos taurus with 15 samples.

Results

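The transcripts described here encode heat shock proteins and the chaperones that work with them, mostly in the cytosol: HSP90 and HSP70 with their partners, J-domain proteins, a BAG protein, small heat shock proteins, the subunits of the TRiC chaperonin, a few mitochondrial chaperones and the heat shock factors HSF1 and HSF2. They were chosen by name, as a list of 37 gene symbols, of which 35 had a row among the 17259 genes of the count table. HSPA1A and BAG2 are not analysed here. All 35 were among the 11578 genes kept by the filter on low counts, and 30 of the 35 (85.7%) had 10 or more counts in each of the 15 libraries, as did 24.2% of all genes in the table.

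Poly(A) RNA had been sequenced from bovine (Bos taurus) embryos at the blastocyst stage, on day 7, in 3 groups with 5 libraries in each. The first group was collected in vivo. The other two were grown from zygotes in SOF medium, a synthetic culture medium modelled on oviduct fluid, after the surrounding cumulus cells had been removed by hand (manual) or by an automatic method (automatic). The design text gives 5 blastocysts per group. The labels used here give no genotype or strain, and leave unsaid whether replicates had separate donors or culture runs. The p-values below therefore speak only of differences among the sequenced libraries, part of which may be technical.

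Chaperones bind unfolded or partly folded proteins and let them reach their native form. HSP70, loaded with clients by J-domain proteins, passes some of them on to HSP90, while the ring-shaped TRiC folds actin, tubulin and other clients in its cavity. Heat shock factors raise transcription of many of these genes when misfolded protein accumulates, and in the mouse embryo HSP70 transcripts are among the first to be made when the genome is activated.

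Sequencing depth lay between 17963944 and 41974214 counts for a library. A set of 5 libraries (in vivo 2, in vivo 4, manual 2, automatic 2 and automatic 4), called low-detection libraries, reached 10 counts for no more than 6977 to 8547 genes, while the other 10 libraries did so for 9900 to 12611. Levels are CPM, counts scaled to a common library size with TMM factors, so CPM is comparable between libraries for 1 gene but not between genes of different length. Several of these genes have close relatives or processed copies in mammalian genomes (the 2 HSP90 genes, the HSP70 genes, HSPD1, HSPE1 and PTGES3), and counts estimated between such copies are less certain. Of 8 embryo markers, 7 had counts in all libraries and CDX2 was at 0 in 1 automatic library. The summed level of these markers was 12890 to 28480 CPM in the in vivo, 8016 to 31892 CPM in the manual and 4939 to 13823 CPM in the automatic group. Cumulus and granulosa markers (9 of 10 with a row) summed to 12.9 to 45.2 CPM, 9.69 to 89.5 CPM and 1.99 to 21.1 CPM in the same order, with FOXL2 at 0 in all libraries and INHA and GREM1 at 0 in all in vivo libraries. KRT8 and KRT18 made up most of the summed embryo markers in each group. In vitro against in vivo, 3 of the 8 embryo markers lay above 0. Another 3 had an unadjusted p under 0.05 (edgeR), all lower, against 6.13% of all tested genes. For automatic against manual 1 of the 8 did, also lower, against 1.48%. The part of these markers in the results was not tested. Fewer cells of a type and less RNA per cell cannot be told apart in such bulk samples.

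The summed chaperone transcripts gave overlapping values in the 3 groups. The 35 genes together made up 2.25 ± 0.206% of the scaled library in vivo, 2.36 ± 0.344% after manual and 2.41 ± 0.333% after automatic denudation (SD, n = 5 each). The lowest library was in vivo 3 at 1.95% and the highest manual 2 at 2.75%, and the groups overlapped. HSPA8, the constitutive cytosolic HSP70, supplied between 18.6% (in vivo 2) and 35.4% (manual 2) of this sum.

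No gene of the list passed the test in any comparison. With a threshold of 0.05 on the Benjamini-Hochberg adjusted p over all genes tested (edgeR quasi-likelihood test), 0 of 35 were called for in vitro against in vivo, with both in vitro groups weighted equally, where 0.0173% of all tested genes were called. The count was also 0 of 35 for automatic against manual (0% of all genes), for automatic against in vivo (0.0173%) and for manual against in vivo (0%). DESeq2, limma-voom and limma-voom with quality weights called 0 of the 35 as well (DESeq2 gave no p for DNAJB1 and HSF2). Over all 11578 genes, in vitro against in vivo, DESeq2 called 87 and quality weights 106. For automatic against manual they called 9 and 1. The smallest adjusted p of the 35 over all 26 fits was 0.0768, for HSPB8 in automatic against in vivo by limma-voom with quality weights. An unadjusted p under 0.05 was found for 3 of 35 (8.57%) in vitro against in vivo, namely DNAJA2, HSPB8 and CCT8, against 6.13% of all genes. Between automatic and manual it was 0 of 35, against 1.48% of all genes. Automatic against in vivo gave 4 of 35 (11.4%: DNAJA2, HSPB8, HSPA9 and CCT8), against 5.36%, and manual against in vivo gave 1 of 35 (2.86%: CCT8), against 3.39%. Both of these share the in vivo libraries. The share for automatic against in vivo lay above that of all genes (11.4% against 5.36%), and the others lay nearer to theirs. HSPB8, named in the in vitro and the automatic count, was at 0 in 4 in vivo libraries. It passed the filter on low counts through libraries from culture, so its place in these counts is no support for a difference. Leaving out 1 library moved these counts. The in vitro count was 1 without automatic 2, in vivo 4 or in vivo 5, and the denudation count was 1 in 8 of the 15 fits that left out 1 library. For automatic against in vivo it was 1 without automatic 2 and 2 without automatic 5 or in vivo 5. For manual against in vivo it was 0 without manual 2 or in vivo 3, 2 without in vivo 1 and 3 without in vivo 2.

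The fitted values leaned slightly above 0, both in vitro against in vivo and for automatic against manual. The shares of all genes given here were not matched for abundance, and genes are not independent of each other. Of the 35 genes 22 (62.9%) had a log2 fold change above 0 for in vitro against in vivo, against 48.2% of all tested genes, with a median of 0.12, and of -0.04 for all genes. With scaling by library size alone in place of TMM, the median of all genes moved to 0.10 and that of the 35 genes to 0.32, with 25 above 0. Between automatic and manual 22 of 35 also lay above 0, against 47.1% of all genes, with a median of 0.08 against -0.05. No gene of the list separated the groups. The lowest of the 10 in vitro libraries exceeded the highest in vivo library for 0 of 35 (0.199% of all genes), and the reverse held for 0 of 35 (0.276%). The automatic libraries lay above the manual ones for 0 of 35 (0.138%) and below them for 0 of 35 (0.527%).

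**Figure D1:**
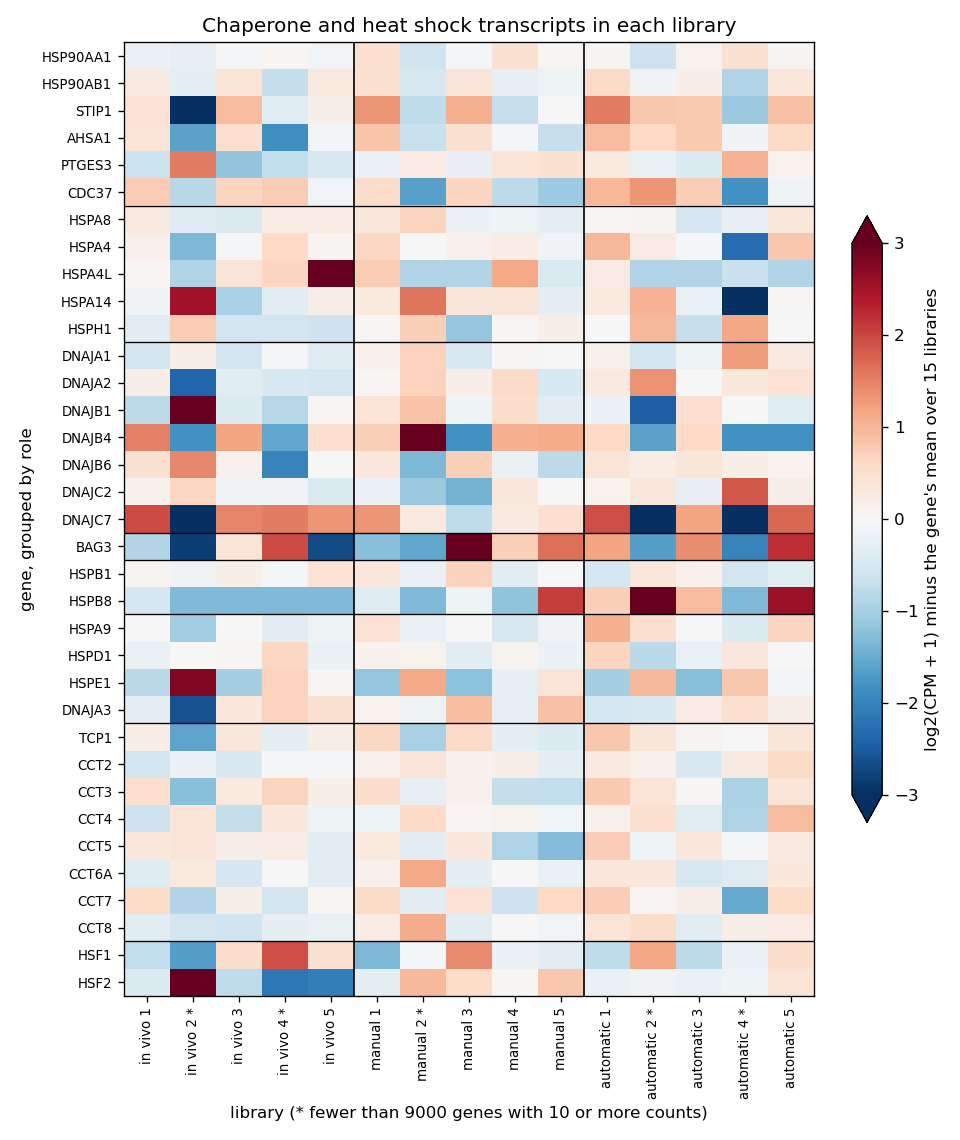
Level of each of the 35 genes (rows, grouped by role) in each of the 15 libraries (columns, by group, low-detection libraries starred), as log2(CPM + 1) minus the gene's mean over libraries. In vivo 2 holds the highest level of 6 genes, among them PTGES3, HSPE1 and HSF2, and the lowest of 8 others, among them STIP1, DNAJA2 and CCT3.

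For some of the more abundant of these genes the data bounded the difference within 2-fold either way. In vitro against in vivo, 95% intervals stayed within a 2-fold difference either way for 13 of 35 (37.1%), against 4.11% of all genes. Precision depends on abundance, and among genes at 50 CPM or more the share was 13 of 29, against 14.5% of all genes at that level. The 13 were HSP90AA1, HSP90AB1, PTGES3, HSPA8, HSPB1, HSPD1, TCP1, CCT2, CCT3, CCT4, CCT5, CCT6A and CCT7. Between automatic and manual 11 of 35 (31.4%) were bounded within 2-fold, against 3.28% of all genes and 11.6% of those at 50 CPM or more. These were HSP90AA1, HSP90AB1, HSPA8, DNAJA1, HSPB1, HSPD1, CCT2, CCT4, CCT6A, CCT7 and CCT8. Differences of 2-fold or more could not be bounded for the remaining genes. These counts hold for all 15 libraries with TMM scaling. Of the 13, 9 stayed bounded without in vivo 4, 10 without the low-detection libraries and 7 by library size alone, and of the 11 at least 9 did under the same settings and in each fit without 1 library. Among the 13, PTGES3, TCP1 and CCT7 lost the bound by library size alone and in several fits without 1 library. PTGES3, CCT2 and CCT4 lost it without the low-detection libraries.

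**Figure D2:**
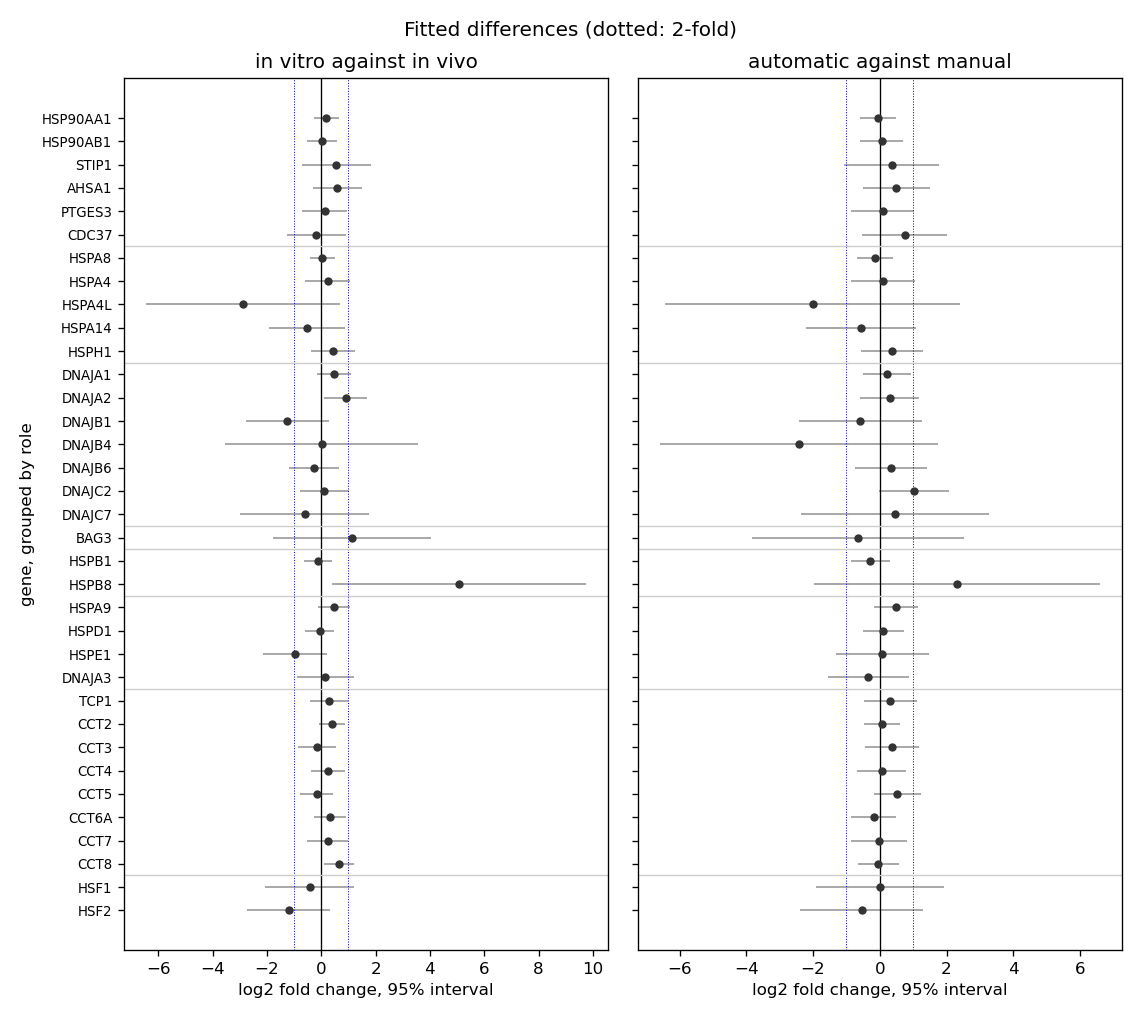
Fitted log2 fold change of each of the 35 genes with its 95% interval, for in vitro against in vivo (left) and automatic against manual (right), with dotted lines at a 2-fold difference. Most points sit near 0, CCT8 lies at 0.65 on the left, and the widest intervals belong to genes with few counts, HSPA4L, DNAJB4 and HSPB8.

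HSP90 is a dimeric chaperone that holds kinases, receptors and other clients near their active form. HSP90AA1, the stress-inducible cytosolic form, lay at 2280.3, 2158, 2519, 2686 and 2439.9 CPM in the in vivo libraries 1 to 5. It lay at 3593, 1691, 2491, 3547 and 2669.8 CPM in the manual and at 2743, 1677, 2779, 3542 and 2725 CPM in the automatic libraries. The in vivo libraries lay close together, and those from culture extended both above and below them. The log2 fold change was 0.18 ± 0.22 (SE) in vitro against in vivo and -0.06 ± 0.26 for automatic against manual. HSP90AB1, the constitutive form, lay at 1864 ± 549, 1848 ± 520.2 and 1923 ± 647 CPM in vivo, after manual and after automatic denudation (SD, n = 5), with folds of 0.02 ± 0.27 (-0.10 to 0.12 without 1 library) and 0.06 ± 0.31 (-0.08 to 0.24).

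The co-chaperones of HSP90 varied more from library to library. AHSA1, which speeds up the ATPase of HSP90, had group means of 124 ± 77.3, 158 ± 74.2 and 223 ± 54.6 CPM, and differed in vitro by 0.59 ± 0.42 (edgeR adjusted p = 0.998). STIP1, which links HSP70 to HSP90, lay at 372 ± 250.2, 485 ± 314 and 619 ± 308 CPM, and ranged 99.2-fold from 10.4 CPM in in vivo 2 to 1033 CPM in automatic 1. CDC37, which brings kinases to HSP90, lay at 96.9 ± 39.1, 65.8 ± 44.7 and 110.1 ± 66.5 CPM, with 0.74 ± 0.61 for automatic against manual (edgeR adjusted p = 1).

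PTGES3 encodes p23, which binds HSP90 in its closed state. It lay at 484, 2185, 333, 453 and 542 CPM in vivo, at 655, 899, 631, 1003 and 1027 CPM after manual and at 929, 641, 564, 1541 and 813 CPM after automatic denudation. Apart from in vivo 2, every in vivo library lay below every library from culture. That split sets aside the 1 library that breaks it, and the share of all genes split in this way was not counted. The fold in vitro was 0.12 ± 0.39 with all libraries. Without in vivo 2 it was 0.94 ± 0.28 (edgeR adjusted p = 0.433), and without the 5 low-detection libraries 0.82 ± 0.28 (edgeR adjusted p = 0.476). Without in vivo 3 it was -0.07.

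HSP70 proteins bind short hydrophobic stretches of their clients in cycles driven by ATP. HSPA8 lay at 7444, 4693, 4535, 7188 and 7152 CPM in vivo, at 7667, 9752, 5499, 5602 and 4998 CPM after manual and at 6399, 6557, 4379, 5182 and 7854 CPM after automatic denudation. The groups overlapped over almost their whole range. Its fold was 0.04 ± 0.22 in vitro, between -0.06 and 0.12 over the fits without 1 library, and -0.14 ± 0.25 for automatic against manual, where it was 0.02 without manual 2. The intervals were -0.42 to 0.50 and -0.67 to 0.39, both within 2-fold.

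HSPA4 and HSPH1 belong to the HSP110 branch, which exchanges the nucleotide of HSP70. HSPA4 lay at 359 ± 145, 410.1 ± 85.4 and 436 ± 252 CPM and HSPH1 at 167 ± 83.4, 197 ± 79.7 and 255 ± 132 CPM in vivo, after manual and after automatic denudation (SD, n = 5). HSPA14, a ribosome-associated HSP70, lay at 159.7 ± 195, 135 ± 76.3 and 90.8 ± 64.4 CPM, and spanned 506 CPM in in vivo 2 to 2.16 CPM in automatic 4. HSPA4L, an HSP110 relative best known from testis, stayed under 4 CPM except in in vivo 5 at 16.5 CPM, and was at 0 in 6 libraries. Its fitted folds of -2.89 ± 1.70 in vitro and -2.01 ± 2.11 for automatic against manual rest on few counts (edgeR adjusted p = 0.943 and 1). The first ran from -4.25 (without automatic 1) to -0.95 (without in vivo 5), and the second from -4.73 (without automatic 1) to -1.15 (without manual 4).

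J-domain proteins deliver clients to HSP70 and trigger its ATPase. Of the 7 measured, 4 lay above and 3 below their in vivo level, with a median of 0.02. DNAJA2, a J-domain protein of the cytosol, lay at 228, 37.4, 158, 143 and 139 CPM in vivo, at 206, 319, 225, 294 and 143 CPM after manual and at 244, 507, 196, 246 and 266 CPM after automatic denudation. Of the in vitro libraries, 4 lay within the in vivo range and 6 above it. The fold was 0.90 ± 0.38 (95% interval 0.10 to 1.70, edgeR adjusted p = 0.750) in vitro and 1.05 ± 0.43 (edgeR adjusted p = 0.814) for automatic against in vivo. Leaving out the low-detection libraries gave 0.37 ± 0.28 in vitro. DNAJA1, its close relative, lay at 461 ± 112, 596 ± 178 and 688 ± 365 CPM, with 0.47 ± 0.30 in vitro.

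DNAJB1, the stress-inducible J-domain partner of HSP70, lay at 13, 219, 17.2, 12.5 and 23.6 CPM in vivo. It lay at 31, 42.6, 21, 33.8 and 18.4 CPM after manual and at 20.5, 3.43, 33.3, 23.3 and 17.9 CPM after automatic denudation. In vivo 2 stood far above the rest, and the other in vivo libraries lay within the range of those from culture. The fold in vitro was -1.24 ± 0.73 with all libraries and 0.55 ± 0.70 without in vivo 2 (edgeR adjusted p = 0.943 and 0.999).

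The remaining J-domain genes also varied within groups. DNAJC2, a ribosome-associated member, lay at 93.8 ± 27.1, 70.9 ± 33.4 and 144 ± 105 CPM in vivo, after manual and after automatic denudation. It differed by 1.03 ± 0.50 between automatic and manual (95% interval -0.02 to 2.07, edgeR adjusted p = 1). Automatic 4 reached 331 CPM. The difference was 0.48 without automatic 4 and 0.25 ± 0.39 without the low-detection libraries. DNAJC7, which binds both HSP70 and HSP90, lay at 66.5 ± 38.9, 37.4 ± 19.3 and 51.3 ± 49.3 CPM and was at 0 in automatic 2 and automatic 4. Its difference between automatic and manual was 0.46 ± 1.34 with all libraries and 1.17 ± 0.45 without the low-detection ones (edgeR adjusted p = 1 for each). DNAJB6, which keeps aggregation-prone proteins soluble, lay at 153 ± 109, 113 ± 60.9 and 142 ± 12 CPM. DNAJB4 lay at 4.01 ± 4.01, 9.41 ± 11.5 and 1.75 ± 2.33 CPM, and was at 0 in 4 libraries.

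**Figure D3:**
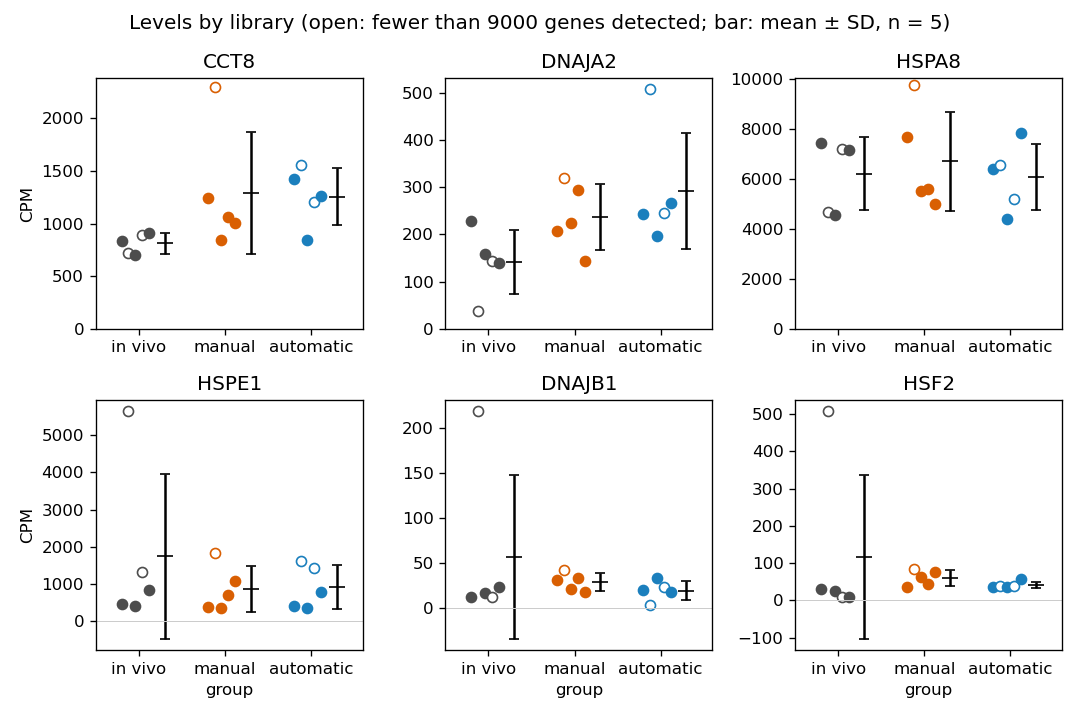
CPM of CCT8, DNAJA2, HSPA8, HSPE1, DNAJB1 and HSF2 in each library by group (points, open for low-detection libraries), with the mean and SD of 5 libraries (bars). For HSPE1, DNAJB1 and HSF2 the in vivo mean is carried by 1 open point, in vivo 2, at 5649, 219 and 508 CPM.

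BAG3 releases clients from HSP70 and steers them, with HSPB8, to autophagy. BAG3 lay at 2.85, 0, 8.28, 26.7 and 0.11 CPM in vivo, at 1.97, 1.41, 69.4, 10.7 and 21.3 CPM after manual and at 15.2, 1.25, 17.5, 0.774 and 31.7 CPM after automatic denudation. All low-detection libraries except in vivo 4 lay under 2 CPM, as did in vivo 5 and manual 1. The folds were 1.14 ± 1.38 in vitro and -0.66 ± 1.52 for automatic against manual (edgeR adjusted p = 0.999 and 1). The first ran from 0.51 (without manual 3) to 2.55 (without in vivo 4). Without manual 3 the second was 0.59, and without the low-detection libraries the first was 2.66 ± 1.20 (edgeR adjusted p = 0.590).

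The small heat shock proteins hold unfolding clients without using ATP. HSPB8 had 33 counts (0.748 CPM) in in vivo 1 and 0 in the other 4 in vivo libraries. It lay at 0.921, 0, 1.26, 0.0943 and 9.69 CPM after manual and at 3.13, 38.5, 3.87, 0 and 14.2 CPM after automatic denudation, so 8 of 10 libraries from culture held counts. HSPB8 passed the filter on low counts through these libraries from culture. The fitted folds were 5.08 ± 2.23 in vitro (edgeR adjusted p = 0.783), 6.24 ± 2.44 for automatic against in vivo (edgeR adjusted p = 0.785) and 2.32 ± 2.04 for automatic against manual (edgeR adjusted p = 1). Leaving out 1 library moved the first from 4.05 (without manual 5) to 10.27 (without in vivo 1, which leaves 0 counts in vivo, so that this value is no bound) and the second from 5.04 (without automatic 2) to 11.43 (without in vivo 1). The third ran from 1.17 (without automatic 2) to 4.38 (without manual 5). HSPB1, the widely expressed small heat shock protein, lay at 932 ± 142, 948 ± 289.8 and 779 ± 227 CPM, with -0.12 ± 0.24 in vitro and -0.28 ± 0.28 for automatic against manual.

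Inside mitochondria HSPA9 pulls in and folds imported proteins, DNAJA3 is its J-domain partner, and HSPD1 and HSPE1 form a folding chamber and its lid. HSPA9 lay at 676, 324, 662, 540.5 and 605 CPM in vivo, at 910.3, 586, 679, 485 and 623 CPM after manual and at 1395, 941, 680.0, 500.0 and 1046 CPM after automatic denudation. Of the automatic libraries, 4 lay above all in vivo libraries and automatic 4 lay within their range. It differed by 0.70 ± 0.32 for automatic against in vivo (edgeR adjusted p = 0.910) and by 0.47 ± 0.32 for automatic against manual (edgeR adjusted p = 1), and by 0.64 ± 0.29 in the latter without the low-detection libraries. DNAJA3 lay at 61.7 ± 34, 77.4 ± 30.3 and 60.9 ± 18.5 CPM.

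HSPD1 lay at 599.6, 677, 706, 1055 and 596 CPM in vivo, at 746, 741, 553, 721 and 605 CPM after manual and at 1067, 392, 596, 863 and 688 CPM after automatic denudation. It differed by -0.06 ± 0.25 in vitro and 0.10 ± 0.29 for automatic against manual. The first was 0.11 with scaling by library size alone and 0.14 without in vivo 4, and the second was -0.07 without automatic 1. Its partner HSPE1 lay at 475, 5649, 412, 1332 and 849.8 CPM in vivo, at 372, 1829.8, 353, 697 and 1089.9 CPM after manual and at 413, 1616, 342, 1443 and 777 CPM after automatic denudation. All 5 low-detection libraries lay above all 10 others for HSPE1. The share of all genes separated in this way was not counted, but 56.4% of all tested genes had their highest level in a low-detection library. The fold was -0.97 ± 0.56 in vitro (edgeR adjusted p = 0.943), 0.22 ± 0.49 without in vivo 2 and -0.03 ± 0.40 without the low-detection libraries.

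HSPD1 and HSPE1 are neighbours in the ARS-UCD2.0 annotation and in mammals are read from a shared promoter. Their log2 ratio of counts within a library was -0.56 ± 1.49 in vivo, -0.09 ± 0.98 after manual and -0.16 ± 1.34 after automatic denudation (SD, n = 5). It ran from -3.06 to -0.34 in the low-detection libraries and from -0.85 to 1.37 in the other 10. The part of detection in this ratio was not tested. Between groups it differed by 0.43 in vitro and -0.07 for automatic against manual (exact two-sided permutation p = 0.538 and 0.929, adjusted p = 0.929 for each over 8 tests). Without in vivo 2 the first was -0.19, and without automatic 2 the second was 0.40.

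**Figure D4:**
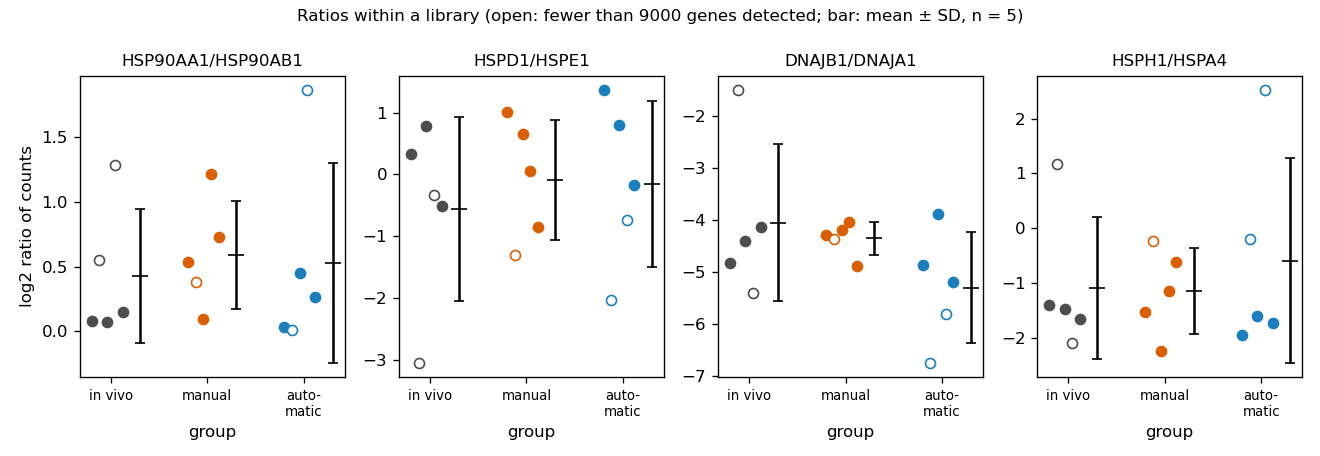
Log2 ratio of counts within each library for 4 pairs (HSP90AA1/HSP90AB1, HSPD1/HSPE1, DNAJB1/DNAJA1 and HSPH1/HSPA4) by group, with the mean and SD of 5 libraries and open points for low-detection libraries. The groups overlap in each pair, and for HSPD1/HSPE1 the open points reach down to -3.06.

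The other 3 ratios set a stress-inducible gene or branch against its relative, which removes library scaling. The HSP90AA1/HSP90AB1 ratio was 0.43 ± 0.52 in vivo, 0.59 ± 0.42 after manual and 0.53 ± 0.77 after automatic denudation. DNAJB1/DNAJA1 was -4.06 ± 1.51, -4.36 ± 0.32 and -5.31 ± 1.07, with a difference of -0.95 between automatic and manual (exact two-sided permutation p = 0.111, adjusted p = 0.889). HSPH1/HSPA4 was -1.09 ± 1.30, -1.15 ± 0.78 and -0.59 ± 1.88, and reached 2.53 in automatic 4. None of the 8 tests passed, and the adjusted p ran from 0.889 to 0.929 (exact permutation).

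TRiC is a double ring in which 8 related subunits each fill a fixed place. All 8 measured subunits had more than 100 CPM in every library. In vitro against in vivo 6 of 8 lay above 0, with a median of 0.27, and 7 of 8 did when scaled by library size alone. The 8 summed to 4800.4 ± 379 CPM in the in vivo group, 5573 ± 1166 CPM in the manual and 5999 ± 1354 CPM in the automatic group. For automatic against manual 5 of 8 lay above 0 with a median of 0.07, and 7 of 8 by library size alone.

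CCT8, the theta subunit, lay at 837, 723, 699, 888 and 909.8 CPM in vivo, at 1243, 2299.6, 846, 1059 and 1010.1 CPM after manual and at 1421, 1555, 840.0, 1202 and 1259 CPM after automatic denudation. Of the in vitro libraries, 8 of 10 lay above the highest in vivo library, and manual 3 and automatic 3 lay among the in vivo ones. The fold was 0.65 ± 0.26 in vitro (95% interval 0.11 to 1.19, edgeR adjusted p = 0.700), 0.67 ± 0.29 for manual and 0.63 ± 0.29 for automatic against in vivo (edgeR adjusted p = 1 and 0.919). It was 0.44 ± 0.24 in vitro without the low-detection libraries and 0.36 for manual against in vivo without manual 2. CCT2, the beta subunit, lay at 776 ± 118, 1001 ± 162 and 1052 ± 254 CPM, with 0.40 ± 0.23 in vitro. CCT4, the delta subunit, differed by 0.25 ± 0.30 in vitro and by 0.63 ± 0.28 without the low-detection libraries (edgeR adjusted p = 0.999 and 0.590).

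The other 5 subunits lay on both sides of 0 in vitro. TCP1 (alpha) differed by 0.29 ± 0.34, CCT6A (zeta) by 0.33 ± 0.28 and CCT7 (eta) by 0.23 ± 0.35. CCT3 (gamma) differed by -0.15 ± 0.33 and CCT5 (epsilon) by -0.17 ± 0.28, where CCT3 was at 0.01 without in vivo 4 and CCT5 at 0.02 by library size alone. CCT5 gave the largest difference of the subunits between automatic and manual, 0.53 ± 0.33 (edgeR adjusted p = 1), with means of 669.6 ± 165 and 464 ± 216 CPM, beside 629 ± 111 CPM in vivo.

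The subunits are needed in equal number, and the proportions of their transcripts varied from library to library. The share of every subunit, its log2(CPM + 1) minus the mean of the subunits, varied less than its level. Its SD over libraries was 0.52 against 0.63 for TCP1 and 0.32 against 0.33 for CCT2. That mean holds the subunit itself, and other genes of like abundance were not set beside them. The log2 range from the lowest to the highest subunit within a library, which also holds differences in transcript length, was 0.93 in in vivo 3 and 3.48 in manual 2. The 3 widest ranges were in low-detection libraries (manual 2, automatic 4 at 3.17 and in vivo 2 at 2.70), and the other 10 libraries ran from 0.93 to 2.17. In manual 2 CCT8 lay at 2299.6 CPM and TCP1 at 206 CPM, while in manual 1 they lay at 1243 and 626 CPM.

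**Figure D5:**
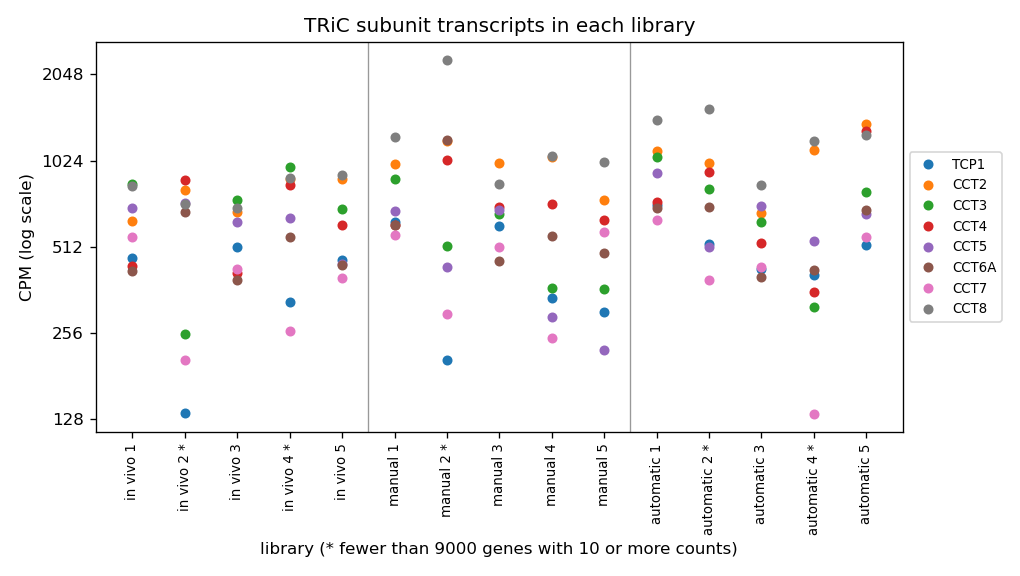
CPM on a log scale of the 8 TRiC subunit transcripts (colours) in each of the 15 libraries, low-detection libraries starred. The subunits spread over 3.48 log2 units in manual 2 and 0.93 in in vivo 3.

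HSF1 is the main activator of heat shock genes, and HSF2 a related factor active in development. HSF1 lay at 9.09, 4.36, 23.2, 63.2 and 22.1 CPM in vivo, at 5.56, 15.5, 43.6, 14 and 12.3 CPM after manual and at 8.88, 36.5, 8.68, 13.8 and 23.3 CPM after automatic denudation. It differed by -0.42 ± 0.78 in vitro and by 0.33 without in vivo 4, and by 0.00 ± 0.92 for automatic against manual (edgeR adjusted p = 0.999 and 1). HSF2 lay at 31.7, 508, 24.6, 8.78 and 9.31 CPM in vivo, at 35.4, 85.3, 63.3, 44.6 and 75.8 CPM after manual and at 37.3, 39.5, 37, 38.8 and 57.1 CPM after automatic denudation. Apart from in vivo 2, every in vivo library lay below every library from culture, as for PTGES3. Here too the split sets aside the 1 library that breaks it, and the share of all genes was not counted. The fold was -1.21 ± 0.73 with all libraries (edgeR adjusted p = 0.972), 1.45 ± 0.56 without in vivo 2 (edgeR adjusted p = 0.657) and 1.16 ± 0.46 without the low-detection libraries (edgeR adjusted p = 0.541). Between automatic and manual HSF2 differed by -0.54 ± 0.88.

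Without the 5 low-detection libraries, an unadjusted p under 0.05 was found in vitro against in vivo for 5 of 35 genes, PTGES3, DNAJA1, BAG3, CCT4 and HSF2, all above their in vivo level, against 8.33% of all genes. None of DNAJA2, HSPB8 and CCT8 was among them, and HSPB8 still differed by 4.16 ± 2.17 (edgeR adjusted p = 0.661). For automatic against manual there were 2 of 35, DNAJC7 and HSPA9, against 4.08%. The edgeR test called 0 of 35 in both, and 7 and 1 of all 12329 genes tested in that fit.

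The spread between libraries of a group differed from gene to gene. The biological coefficient of variation of the fit, the relative SD between libraries beyond counting error, had a median of 0.555 over the 35 genes and 1.25 over all tested genes, and 30 of the 35 lay below the latter. Among genes at 50 CPM or more it was 0.512 (29 genes) against 0.672 (3277 genes). The lowest values were those of CCT2 at 0.399 and HSP90AA1 at 0.406. The highest were those of HSPA4L at 2.21, HSPB8 at 2.10 and DNAJB4 at 1.93, each at 0 in some libraries.

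Other genes of the chaperone system, in lists that hold none of the 35, were also not called. Of all tested genes 48.2% lay above 0 in vitro and 6.13% had an unadjusted p under 0.05 (edgeR). Of 10 other HSP70, HSP110 and HSP90 family genes, 8 lay above 0 in vitro with a median of 0.40, and 1 had an unadjusted p under 0.05. Of 33 other J-domain genes tested 17 lay above 0 (median 0.10, 3 under 0.05, all higher), and of 29 other co-chaperones and exchange factors 16 did (median 0.05, 1 under 0.05, higher). Of 17 genes of prefoldin and partners of TRiC 4 lay above 0, with a median of -0.38 and 0 under 0.05. Of 9 other small heat shock proteins and factors with a row, 3 were tested, 2 lay above 0 and 1 was under 0.05, higher. The edgeR test called 0 of these 92 genes in vitro against in vivo, against 0.0173% of all tested genes. For automatic against manual none was called or had an unadjusted p under 0.05, against 0% and 1.48% of all tested genes.

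A rule on the smallest p named 3 of these other genes. DNAJB9, a J-domain protein of the endoplasmic reticulum, lay at 44.8, 15, 29.7, 91 and 92.6 CPM in vivo, at 126, 201, 112, 227 and 144 CPM after manual and at 87.7, 177, 116, 221 and 84.1 CPM after automatic denudation. It differed by 1.45 ± 0.46 in vitro (edgeR adjusted p = 0.553), with 8 of 10 libraries above the highest in vivo one. CRYAB, a small heat shock protein of lens and muscle, had 0 counts in vivo and counts in 6 of 10 libraries from culture, up to 12.6 CPM. Its mean in vitro was 2.75 CPM, and 1.65 CPM without manual 2. It passed the filter on low counts only through libraries from culture. With 0 counts in vivo, its fitted fold of 9.32 ± 2.89 (edgeR adjusted p = 0.553) is no bound. DNAJC12 reached 10.7 CPM in automatic 2, while in vivo 3 held 2 counts and the other in vivo libraries 0. It too passed the filter only through libraries from culture.

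Another 3 were picked after their values were seen. CHORDC1, an HSP90 partner, lay at 44.3 ± 22.3, 114 ± 79.5 and 125 ± 49.9 CPM in vivo, after manual and after automatic denudation, with 1.42 ± 0.57 in vitro (edgeR adjusted p = 0.703). DNAJC3, of the endoplasmic reticulum, lay at 70.4 ± 28.6, 129 ± 47.8 and 180.4 ± 126 CPM, with 1.12 ± 0.46 (edgeR adjusted p = 0.737). HSPA6, a stress-induced HSP70, had 14 counts (0.640 CPM) in in vivo 4 and 0 in the other in vivo libraries. It lay at 5.44 and 19.2 CPM in manual 1 and manual 3, at 12.1, 22.6, 18.8 and 7.86 CPM in automatic 1, 2, 3 and 5, and at 0 in the remaining libraries from culture (edgeR adjusted p = 0.768). HSPA6 also passed the filter on low counts through libraries from culture.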

How the data were processed

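The deposited table gives estimated counts for genes as unscaled whole numbers. Per the submitters' processing notes, the tools were FastQC, fastp and kallisto. Stranded poly(A) libraries with molecular identifiers were made per the labels' protocols. Genome build, transcript set and use of the identifiers: not given in the sources used here. No coordinates or sequences are therefore printed. Columns were matched to samples by library name. A row without a gene name (1, at 0 in all libraries) was left out. All 37 symbols are in the ARS-UCD2.0 annotation, from which only names and neighbouring genes were taken.

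The 15 libraries entered 1 fit in R 4.3.3 with edgeR 4.0.16 (TMM, filterByExpr, robust estimateDisp and glmQLFit, quasi-likelihood F test), with counts rounded to whole numbers, which changed 0 values, and Benjamini-Hochberg adjustment over 11578 genes at 0.05. Standard errors are the absolute log2 fold change over the square root of F. Intervals are at 95%. Ratios of counts plus 0.5 were compared by exact two-sided permutation over libraries, with adjustment over 8 tests. The planned HSPA1A/HSPA8 ratio was not run, because HSPA1A had no row. Alternatives used RLE or library-size scaling, other filters, DESeq2 1.42.0, limma-voom (limma 3.58.1) with and without quality weights, a replicate block, a covariate for genes detected, and fits without 1 library or without the low-detection libraries (under 9000 genes with 10 or more counts). The fit was tested on simulated data, where it called only a minority of the changes put in, so a count of 0 does not show that levels were alike. Libraries within groups differed by more than sampling noise in all 30 pairs (smallest chi-square over degrees of freedom 172).

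The list of genes, their roles and the other lists were chosen with earlier results of these data known. Folds are given for genes with an unadjusted p under 0.05, the smallest p of each role in 2 comparisons (in vitro against in vivo, automatic against manual), and HSP90AA1, HSPA8, HSPD1 and HSF1. Folds of the remaining genes were chosen after their values were seen.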

Additional observations from a re-analysis of the deposited data

Results flagged for a closer look

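In 14 of 105 groups of 5 libraries (35 genes in 3 groups, 13.3%) the highest or lowest library stood apart from the other 4. The gap was more than 0.71 of the group's range of log2(CPM + 1), Dixon's limit. For normally distributed values, chance passes this limit in about 1 of 20 groups. The share of all tested genes flagged in this way was not counted. A group with 4 libraries at 0, as for HSPB8 in vivo, passes whenever its remaining library holds counts. Of the 14, 11 were in low-detection libraries and 8 in in vivo 2. Genes of 1 library are not independent of each other, so the 14 are not 14 separate events.

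In in vivo 2, 3 genes stood above the other in vivo libraries: PTGES3 at 2185 CPM against 333 to 542, HSPH1 at 315 CPM against 119.9 to 150.1, and DNAJB1 at 219 CPM against 12.5 to 23.6. Another 5 stood below them: STIP1 at 10.4 CPM against 276 to 683, DNAJA2 at 37.4 CPM against 139 to 228, DNAJC7 at 2.14 CPM against 68.6 to 107, DNAJA3 at 8.80 CPM against 49.1 to 95.3, and CCT3 at 255 CPM against 692 to 969.7. The low values rest on 28 counts for DNAJC7, 115 for DNAJA3 and 136 for STIP1. HSPE1 and HSF2, at 5649 and 508 CPM in this library, were also the highest in the in vivo group.

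In automatic 4, STIP1 was low at 165 CPM against 613 to 1033, HSPA14 was low at 2.16 CPM against 74.9 to 182, and DNAJC2 was high at 331 CPM against 75.4 to 114. The other 3 values were in libraries with more genes detected. HSF2 lay at 57.1 CPM in automatic 5 against 37.0 to 39.5 CPM, HSPA4L at 1.22 CPM in automatic 1 against 0 to 0.166 CPM, and HSPB8 at 0.748 CPM in in vivo 1 against 0 in the other 4.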

How the results depend on the processing

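The list held 0 called genes in each of the 4 comparisons under all 25 alternatives (DESeq2 gave no p for DNAJB1 and HSF2). Over all 11578 genes, in vitro against in vivo, DESeq2 called 87 and quality weights 106. What moved for the list were sizes and directions of folds and unadjusted counts, and the cause was not tested. Shares of all tested genes are in brackets. Genes with an unadjusted p under 0.05 in vitro against in vivo (3 of 35) were 5 by library size (4.58%), 8 by voom with quality weights (11.9%), 5 with detected genes as covariate (9.31%), 5 without the low-detection libraries (8.33%) and 1 to 4 without 1 library. For automatic against manual (0) they were 1 by RLE (1.46%), DESeq2 (3.05%) or covariate (3.71%), 3 by quality weights (6.50%), 2 without the low-detection libraries (4.08%) and 0 to 1 without 1 library. For automatic against in vivo (4) they were 7 by library size (4.66%), 11 by quality weights (13.0%) and 1 to 5 without 1 library. For manual against in vivo (1) they were 5 by quality weights (8.99%), 4 without the low-detection libraries (7.41%) and 0 to 3 without 1 library.

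Fold signs turned in vitro against in vivo as follows. HSP90AB1 was at -0.04 by voom, -0.02 by quality weights, -0.03 by covariate, -0.06 without the low-detection libraries and -0.10 to 0.12 without 1 library. HSPB1 was at 0.01 by library size. CCT5 was at 0.02 by library size and 0.03 without the low-detection libraries, and CCT3 ran from -0.35 to 0.01 without 1 library. HSPA8 was at -0.03 by quality weights, -0.07 without the low-detection libraries and -0.06 to 0.12 without 1 library. HSPD1 was at 0.11 by library size, 0.14 by quality weights, 0.18 without the low-detection libraries and -0.15 to 0.14 without 1 library. HSF2 was at 0.90 by voom, 1.01 by quality weights, 1.16 without the low-detection libraries and -1.49 to 1.45 without 1 library. DNAJB1 was at 0.07, 0.55, 0.49 and -1.48 to 0.55 under the same settings. Without 1 library HSPE1 ran from -1.21 to 0.22, HSF1 from -0.74 to 0.33 and PTGES3 from -0.07 to 0.94.

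For automatic against manual HSPA8 was at 0.08 without the low-detection libraries and -0.23 to 0.02 without 1 library. BAG3 was at 0.93 by quality weights and -1.24 to 0.59 without 1 library. HSF1 was at -0.13 by quality weights, -0.16 by covariate, -0.45 without the low-detection libraries and -0.43 to 0.64 without 1 library. DNAJC7 was at -3.1 by voom and -0.86 by covariate. Without 1 library HSP90AA1 ran from -0.20 to 0.09, HSP90AB1 from -0.08 to 0.24 and HSPD1 from -0.07 to 0.27.

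Among ratios, HSPD1/HSPE1 ran from -0.19 to 0.77 in vitro and -0.45 to 0.40 between automatic and manual without 1 library, HSPH1/HSPA4 from -0.16 to 0.78 and -0.22 to 0.91, and HSP90AA1/HSP90AB1 from -0.01 to 0.34 and -0.40 to 0.09. Without the low-detection libraries HSPD1/HSPE1 between automatic and manual was 0.45, and HSPH1/HSPA4 was -0.04 in vitro and -0.38 between automatic and manual.

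The labels do not say that a replicate number marks a shared animal or day, so the numbers were not taken to pair libraries. Deviations of same-number libraries correlated above 0.1 in 8 of 15 pairs (0.00137 to 0.380), all above 0. Pairs of unlike number were not set beside them. Of the libraries, 8 of 15 correlated best with their own number, and whether the numbers pair libraries was not tested. The low-detection libraries all bore the number 2 or 4, and every library of number 2 was among them. Number and detection therefore cannot be fully told apart. With the number as a replicate block, HSF2 in vitro was 0.39, BAG3 and DNAJC7 between automatic and manual were 0.09 and -0.77, and unadjusted counts were 4, 1, 6 and 1 in the order above (6.47%, 2.11%, 6.32% and 4.40%). Among the folds and ratios recomputed, those not named here kept their sign under these settings, and other counts of genes stayed within 1.5 times.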

Other observations

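The highest level of a gene over the 15 libraries was not spread evenly. Automatic 1 held it for 10 of the 35 genes (28.6%), against 3.70% of all tested genes: HSP90AB1, STIP1, AHSA1, HSPA4, HSPA9, HSPD1, TCP1, CCT3, CCT5 and CCT7. It is not a low-detection library, with 11477 genes at 10 or more counts. Genes of 1 library are not independent of each other, and the share of all tested genes was not matched for abundance. In vivo 2 held the highest level of 6 (17.1%, against 16.1% of all tested genes), PTGES3, HSPA14, DNAJB1, DNAJB6, HSPE1 and HSF2. Over the 31 genes with a single lowest library, in vivo 2 was lowest for 8 and automatic 4 for 7 (25.8% and 22.6%, against 18.4% and 21.2% of all tested genes with a single lowest library). A low-detection library held the lowest level of 21 of these 31 genes (67.7%, against 74.9% of all) and the highest of 17 of 35 (48.6%, against 56.4%).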
